A study of Homo sapiens with 14 samples.

Results

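The fourth day of exposure to 2',3'-dideoxycytidine (ddC) was examined by setting the 3 libraries made after 96 h of ddC against the 3 made after 72 h. These 6 libraries were chosen by their labels from the 14 of a time course, and untreated cells were not used as the baseline. Both groups were wild-type IMR90, a cell line of fibroblasts from human fetal lung, given 20 uM ddC, so the drug and its dose were common to both sides and the groups differed by 1 day of exposure. The time course also held 3 libraries each at 24 h and 48 h and 2 of untreated cells, and these entered the fit to estimate the spread between libraries. No untreated culture was labelled with 3 days, so a day more of ddC and a day more in culture cannot be told apart. The labels do not say whether libraries of a group came from separate cultures, and p-values measure the spread between these libraries, which may be technical. Messenger RNA was measured by sequencing of polyadenylated RNA, as counts per gene.

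ddC is a cytidine analog without a 3' hydroxyl group. Once phosphorylated it is incorporated by the mitochondrial DNA polymerase and ends the growing strand, so that mitochondrial DNA is lost as cells go on dividing. Most respiratory chain subunits are encoded in the nucleus, but a core set is encoded on mitochondrial DNA, and cells with a failing chain are known to rely more on glycolysis and to activate ATF4, the transcription factor of the integrated stress response. Fibroblasts also make collagen and elastic fibers, and several enzymes of collagen maturation are classic targets of the hypoxia-inducible factors (HIFs), which are stabilised when prolyl hydroxylases lack oxygen. The table held 0 genes of the mitochondrial chromosome, so RNA encoded on mitochondrial DNA was not analysed here.

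Total counts of the 6 libraries ran from 11686490 to 12147402, and 13371 of 27142 genes passed the filter on low counts. Values below are counts scaled to the library total (CPM), given for replicates 1, 2 and 3 of each time in that order, followed by the fitted log2 fold change of 96 h over 72 h ± its SE (n = 3 and 3 libraries). A gene was called at an edgeR quasi-likelihood p under 0.05 after Benjamini-Hochberg adjustment over all genes tested. In nuclear RNA, replicate 3 at 72 h stood apart from replicates 1 and 2 and lay closer to the 96 h libraries. MALAT1, a long noncoding RNA kept in the nucleus, stood at 390.8, 409 and 81.5 CPM at 72 h and at 194, 77.3 and 123 CPM at 96 h. The mean log2 CPM of 4 such RNAs was 6.86, 6.79 and 4.61 at 72 h and 5.85, 4.73 and 5.36 at 96 h. Their median log2 fold change was -1.005, and 0 of the 4 passed the test. Over all genes, log2 CPM of 72 h replicate 3 correlated with that of the 96 h libraries at 0.9926 to 0.9935, and with that of 72 h replicates 1 and 2 at 0.9883 and 0.9885. Reads on opposite-strand neighbours of abundant genes amounted to 0.692 to 0.785 per 1000 at 72 h and 0.785 to 0.821 at 96 h; the part of this measure in the results was not tested. Of 12 fibroblast markers 0 were at 0 counts, with summed levels of 54840 to 57830 CPM at 72 h and 60350 to 66530 CPM at 96 h, although S100A4 was low at 4.69 to 7.46 CPM. CDH1, KRT14 and SFTPC (of 9 epithelial markers), PECAM1 and CDH5 (of 6 endothelial) and CD3E and LYZ (of 7 blood cell markers) were at 0 in all 6 libraries. Other members were present in all 6, with KRT18 at 48.3 to 61.3 CPM and KRT8 at 8.70 to 12.6 CPM. TEK stood at 34.0 to 42.2 CPM and CD68 at 43.0 to 50.7 CPM. These genes made up most of the sums for epithelium, endothelium and blood cells. The sums went from 64.8 to 73.6 CPM to 75.3 to 83.1 CPM for epithelium, from 34.8 to 37.5 CPM to 38.5 to 43.3 CPM for endothelium, from 43.3 to 51.0 CPM to 48.2 to 50.1 CPM for blood cells and from 746 to 897 CPM to 838 to 936 CPM for the 6 smooth muscle markers.

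Between 72 h and 96 h, 61 genes rose and 8 fell, and every change was less than 2-fold. The called genes were 0.516% of the genes tested (0.456% higher and 0.0598% lower). The rises ran from 1.18-fold to 1.85-fold, with a median of 1.31-fold. By the lists used here, 14 of the 61 rising genes were hypoxia-response or glycolytic genes and 10 were collagens or other matrix genes. Of these, 4 genes were counted in both, while 4 of the 8 falling genes take part in DNA replication. The lists were written with earlier results of these data known, and their counts and medians were not tested. In all 69 called genes the 3 libraries of one time lay beyond the 3 of the other, as they did in 16.5% of all tested genes (9.26% higher and 7.24% lower at 96 h). The 69 were selected by the adjusted p of this same comparison, so their lack of overlap is not separate support. Before adjustment, 1544 genes had a p under 0.05. The median log2 fold change of all tested genes was -0.0029, and 49.2% of them lay above 0.

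**Figure D1:**
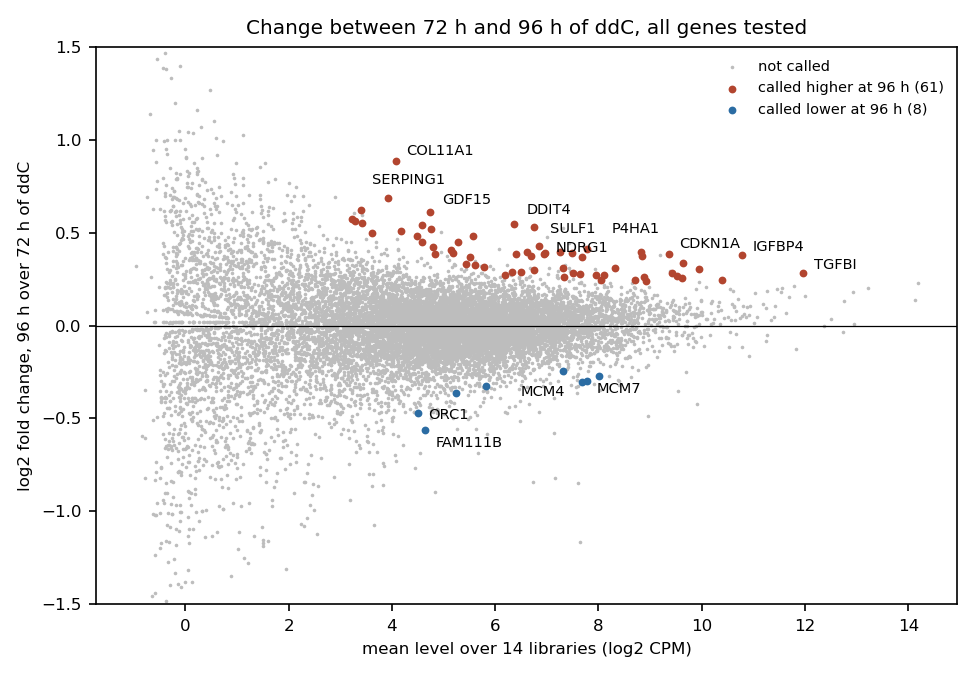
Fitted log2 fold change of 96 h over 72 h of ddC (vertical axis) against mean log2 CPM (horizontal axis) for the genes tested. Any Y-linked and X-inactivation genes among the 13371 are not drawn. The 61 genes called higher and 8 called lower are in colour. The vertical axis is limited, and 14 uncalled genes lie outside it. The called genes lie within a band of less than 2-fold on either side of 0.

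How many genes passed turned on individual libraries. Leaving out 72 h replicate 1, 2 or 3 gave 6, 5 and 243 called genes. Leaving out 96 h replicate 1, 2 or 3 gave 7, 31 and 21. COL11A1, DDIT4, SULF1 and NDRG1 kept their calls without any 1 of the 6 libraries, and the other 65 lost theirs without at least 1. These 4 also passed in every other alternative that gave an adjusted p; DESeq2 gave none for COL11A1. All 69 kept their direction in each of these refits. When the mean of the 4 nuclear RNAs entered the fit as a covariate 252 genes were called, 166 higher and 86 lower, and all of the 69 were among them.

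**Figure D2:**
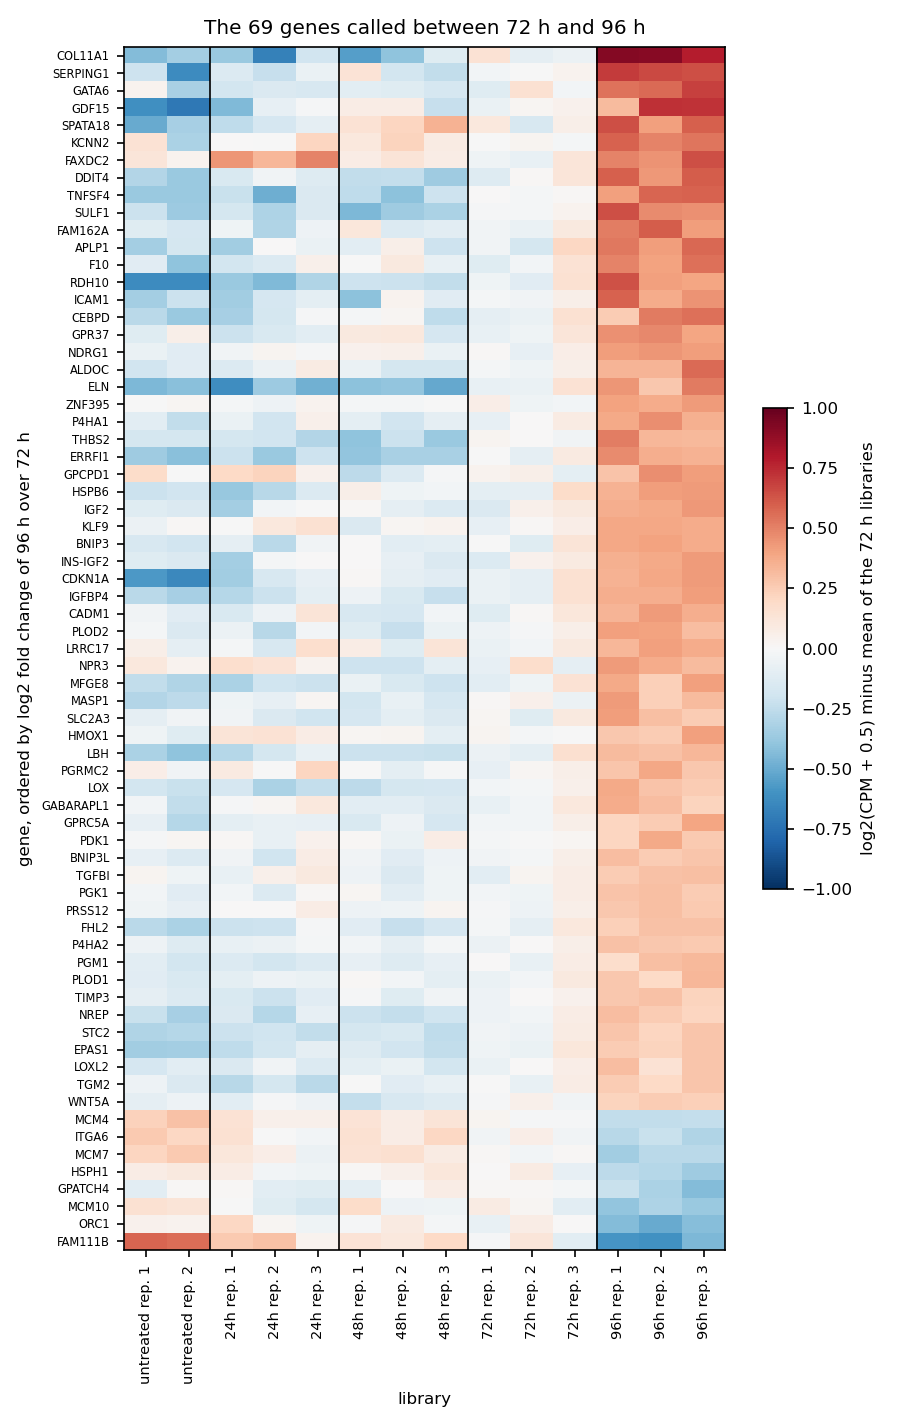
Levels of the 69 called genes (rows) in all 14 libraries (columns, ordered by time of ddC), as log2(CPM + 0.5) minus the gene's mean at 72 h. The 3 columns at 96 h differ from the 3 at 72 h in one direction for every gene; the genes were selected by the adjusted p of this comparison. The earlier columns were not used in that comparison except to estimate the spread.

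The hypoxia-response list held the most called genes. Of its 36 tested members 12 rose and 0 fell, 35 lay above 0 and the median log2 fold change was 0.26, against -0.0029 over all genes. In 26 of the 36 members all 96 h libraries exceeded all 72 h libraries, against 9.26% of all tested genes. Members that rose encode a brake on the growth kinase mTORC1 (DDIT4), mitochondrial proteins of mitophagy or cell death (BNIP3, BNIP3L and FAM162A), collagen-modifying enzymes (P4HA1, P4HA2, PLOD2 and LOX), a glucose transporter (SLC2A3), the kinase that shuts pyruvate dehydrogenase (PDK1), a secreted glycoprotein (STC2) and the stress-induced protein NDRG1. DDIT4 (NM_019058; hg19 chr10:74033677-74035797) stood at 74.2, 81.5 and 88.0 CPM at 72 h and at 123, 109.7 and 124 CPM at 96 h. As in every called rise, all libraries at 96 h lay above all at 72 h. The rise of DDIT4 was 0.55 ± 0.07 (adjusted p = 5.68e-04). NDRG1 went from 108, 101 and 112 CPM to 144, 146 and 144 CPM, a rise of 0.43 ± 0.06 (adjusted p = 6.42e-04). Its values at 96 h were close together (SD 1.39 CPM), and over the previous day, 72 h over 48 h, NDRG1 stood at -0.01 ± 0.06. DDIT4 stood at 0.28 ± 0.07 over that day and did not pass (adjusted p = 0.242). The median of the whole hypoxia list over that day was 0.095, with 29 of the 36 members above 0.

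FAM162A went from 24.7, 24.2 and 27.2 CPM to 36.3, 38.7 and 34.1 CPM (0.52 ± 0.09, adjusted p = 0.00884). BNIP3 stood at 82.5, 75.8 and 90.5 CPM at 72 h and at 108, 109 and 107 CPM at 96 h (0.39 ± 0.07, adjusted p = 0.0112), and its relative BNIP3L rose by 0.28 ± 0.06 (adjusted p = 0.0339). Both encode receptors that mark mitochondria for autophagy. STC2 rose by 0.25 ± 0.05 (adjusted p = 0.015) from 799, 788 and 867 CPM to 990.0, 948 and 989.7 CPM. Members that did not pass included CA9, a carbonic anhydrase that is among the most HIF-dependent genes, at 2.80, 1.88 and 2.86 CPM and then 3.98, 4.44 and 5.22 CPM (0.85 ± 0.21, adjusted p = 0.064). The oxygen-sensing prolyl hydroxylase EGLN1 stood at 0.27 ± 0.06 (adjusted p = 0.0501), the glucose transporter SLC2A1 at 0.25 ± 0.06 (adjusted p = 0.0617) and the angiogenic factor VEGFA at 0.14 ± 0.15 (adjusted p = 0.742). WSB1 was the member below 0, at -0.24 ± 0.34 (adjusted p = 0.814). Outside the list, EPAS1, which encodes HIF-2 alpha, rose by 0.25 ± 0.06 (adjusted p = 0.0479), whereas HIF1A stood at 0.16 ± 0.05 (adjusted p = 0.185); both were picked with their values known. The call of EPAS1 ended without any 1 library other than 72 h replicate 3 (adjusted p up to 0.282), with limma-voom and when the other groups were left out of the fit. The called count of the list was 2 without 72 h replicate 1 or 2, 3 without 96 h replicate 1, 8 without 96 h replicate 2 or 3 and 15 without 72 h replicate 3. It was 17 with the nuclear RNA covariate, and the list's median lay between 0.25 and 0.30 in every refit.

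The promoters of these genes are shown because HIFs bind a short core motif, ACGTG or GCGTG, that can be read in the sequence. That core is too common to single out genes: it occurred on either strand in 63.7% of 10548 promoters of tested genes and in 62.2% of 45 promoters of genes called higher. Promoters were the RefSeq windows (GRCh38.p14) from 250 bases before to 50 bases after the start of each gene. The longer form TACGTG, which contains the ACGTG core, occurred in 3.42% of promoters of tested genes, in 8 of 31 promoters of the hypoxia list and in 5 of the 45 promoters of genes called higher. Those 5 are given here 5' to 3' along the strand of the gene, with TACGTG or its reverse complement CACGTA in capitals. The windows are DDIT4 at chr10:72273773-72273828 (plus strand), P4HA1 at chr10:73096922-73096977, PLOD2 at chr3:146161354-146161409, LOX at chr5:122078328-122078383 and ALDOC at chr17:28576896-28576948 (all minus strand). The capitals begin 126, 86, 200, 99 and 28 bases before the gene's start. A match describes these letters alone.
DDIT4: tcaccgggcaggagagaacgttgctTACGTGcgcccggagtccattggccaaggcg
P4HA1: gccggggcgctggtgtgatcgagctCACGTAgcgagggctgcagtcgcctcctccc
PLOD2: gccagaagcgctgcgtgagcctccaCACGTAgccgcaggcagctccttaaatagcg
LOX: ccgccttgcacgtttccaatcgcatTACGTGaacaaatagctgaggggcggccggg
ALDOC: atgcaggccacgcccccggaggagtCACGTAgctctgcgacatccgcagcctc

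Glycolytic genes lay on the same side with a smaller median. All 24 tested members lay above 0, with a median of 0.15, and 4 of them rose. PGK1, which makes ATP in the later steps of glycolysis, stood at 661, 651 and 706 CPM at 72 h and at 817, 829 and 803 CPM at 96 h, a rise of 0.28 ± 0.05 (adjusted p = 0.0135). ALDOC, an aldolase, rose by 0.43 ± 0.08 (adjusted p = 0.0183) from 26.2, 25.7 and 27.7 CPM to 33.7, 33.7 and 39.4 CPM. The other two, PDK1 (0.29 ± 0.06, adjusted p = 0.0309) and SLC2A3 (0.33 ± 0.07, adjusted p = 0.0345), are also in the hypoxia list; the call of SLC2A3 ended when the other groups were left out of the fit. In each of these 4 genes, as in every called gene, the groups did not overlap. Lactate dehydrogenase LDHA (0.19 ± 0.06, adjusted p = 0.201) and hexokinase HK2 (0.14 ± 0.09, adjusted p = 0.533) did not pass. The median of the same list over the previous day, 48 h to 72 h, was 0.02. The count of 4 fell to 0 without 72 h replicate 1, 72 h replicate 2 or 96 h replicate 1 and to 1 without 96 h replicate 2 or 3, and was 9 without 72 h replicate 3.

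**Figure D3:**
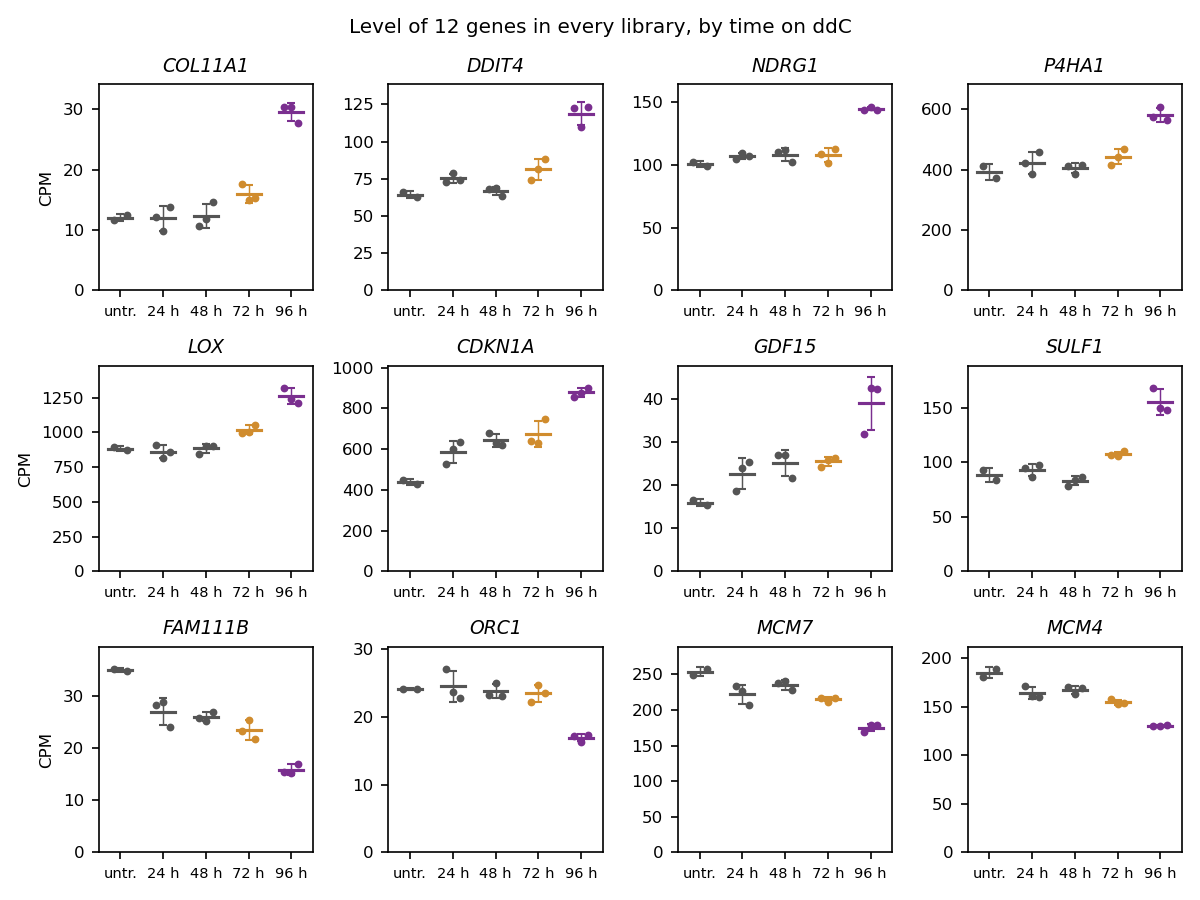
CPM of 12 genes in all 14 libraries (points) by time of ddC in hours, with the group mean (bar) and SD (error bar; n = 3 libraries, 2 for untreated). The vertical scale differs between panels. In the called genes the 96 h points lie outside the range of the 72 h points.

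Matrix genes formed the other group with many rises. Of 43 tested matrix genes other than collagens, 9 rose and 0 fell, 35 lay above 0 and the median was 0.21. They fall into structural proteins (ELN, THBS2 and TGFBI) and enzymes that hydroxylate or cross-link collagen (P4HA1, P4HA2, PLOD1, PLOD2, LOX and LOXL2), and 4 of the enzymes (P4HA1, P4HA2, PLOD2 and LOX) are in the hypoxia list too. P4HA1, the catalytic subunit of prolyl 4-hydroxylase, went from 417, 442 and 467 CPM to 573, 609 and 564 CPM (0.40 ± 0.06, adjusted p = 0.00601). PLOD2, a lysyl hydroxylase of collagen telopeptides, went from 436, 448 and 472 CPM to 601, 597 and 559.7 CPM (0.37 ± 0.06, adjusted p = 0.00849). LOX, the lysyl oxidase that starts cross-linking, stood at 997, 1004 and 1055 CPM and then at 1323, 1244 and 1214 CPM (0.31 ± 0.05, adjusted p = 0.00627). The 96 h libraries of these 3 enzymes all exceeded those at 72 h, as in every called rise. P4HA2 (0.27 ± 0.05, adjusted p = 0.0126), PLOD1 (0.27 ± 0.05, adjusted p = 0.0201) and LOXL2 (0.25 ± 0.05, adjusted p = 0.0383) also rose. The call of LOXL2 ended with limma-voom and when the other groups were left out of the fit.

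Among structural proteins, elastin (ELN) stood at 227, 229 and 266 CPM at 72 h and at 326, 289 and 345 CPM at 96 h (0.41 ± 0.07, adjusted p = 0.0126). ELN had risen by a like amount over the previous day (0.44 ± 0.08, adjusted p = 0.0274). The median of the 43 matrix genes other than collagens was 0.11 over that day, with 36 above 0. THBS2, a matricellular thrombospondin, rose from 102, 101 and 97.8 CPM to 143, 126 and 126 CPM (0.40 ± 0.06, adjusted p = 0.00601), and TGFBI, a secreted adhesion protein, by 0.28 ± 0.05 (adjusted p = 0.015). Of 25 collagens 1 rose. COL11A1 (NM_001854; hg19 chr1:103342023-103574052), a minor fibrillar collagen that controls fibril diameter, stood at 17.6, 14.9 and 15.3 CPM at 72 h and at 30.4, 30.3 and 27.8 CPM at 96 h. This was the largest change among the called genes, at 0.89 ± 0.12 (adjusted p = 6.60e-04), and the groups were far apart. The abundant collagens did not pass, with COL1A1 at 0.23 ± 0.08 (adjusted p = 0.257), COL1A2 at 0.20 ± 0.05 (adjusted p = 0.0596) and COL3A1 at 0.18 ± 0.05 (adjusted p = 0.109). The collagen median was 0.18 with 18 of 25 above 0, and it had been 0.15 over the previous day. It moved to 0.10 without 72 h replicate 3, and the nuclear RNA covariate gave 6 called collagens. Without 72 h replicate 1 or 2 the 9 matrix calls fell to 0, without 96 h replicate 1 to 1 and without 96 h replicate 3 to 5, and without 72 h replicate 3 they were 17. TIMP3, an inhibitor of metalloproteinases, was the 1 called gene of 34 matrix proteases and inhibitors (0.26 ± 0.05, adjusted p = 0.015); its call ended without 72 h replicate 1 or 2 or 96 h replicate 1 or 2 (adjusted p up to 0.118).

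Targets of p53 and of ATF4 contributed a few genes each. Of 48 tested p53 targets 3 rose and 39 lay above 0, with a median of 0.14. CDKN1A, the cell cycle inhibitor p21 (NM_001220778; hg19 chr6:36646487-36655116), stood at 643, 630.2 and 747 CPM at 72 h and at 856, 878 and 903 CPM at 96 h (0.38 ± 0.07, adjusted p = 0.0121). GDF15, a secreted cytokine of mitochondrial and other stress, went from 24.3, 25.9 and 26.4 CPM to 32.0, 42.6 and 42.3 CPM (0.61 ± 0.12, adjusted p = 0.0215). SPATA18, which encodes the mitochondrial quality control protein Mieap, went from 9.14, 7.51 and 8.84 CPM to 13.5, 11.4 and 13.0 CPM (0.57 ± 0.12, adjusted p = 0.0311), and its call ended when the other groups were left out of the fit. In all of these, as in every called rise, the 96 h libraries lay above the 72 h libraries. In GDF15 replicate 1 at 96 h was the lowest of its group. Other p53 targets did not pass, among them BTG2, an antiproliferative gene, at 0.47 ± 0.11 (adjusted p = 0.0596), BBC3, which encodes the cell death inducer PUMA, at 0.36 ± 0.12 (adjusted p = 0.212), and MDM2, the ligase that degrades p53, at 0.11 ± 0.06 (adjusted p = 0.484). The 3 calls fell to 0 without 72 h replicate 1 or 2 or 96 h replicate 3 and to 1 without 96 h replicate 1.

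Of 56 tested ATF4 targets 3 rose and 51 lay above 0, with a median of 0.14, close to the 0.13 of the previous day. The 3 were DDIT4, STC2 and GDF15, each of which is also in the hypoxia or the p53 list. Members of the ATF4 list that serve amino acid synthesis did not pass, with asparagine synthetase ASNS at 0.24 ± 0.06 (adjusted p = 0.0638) and the serine pathway enzyme PSAT1 at 0.17 ± 0.06 (adjusted p = 0.234). ASNS was nevertheless at 169.7, 176 and 174 CPM and then 205, 208 and 200.1 CPM, with no overlap. The pseudokinase TRIB3 stood at 0.37 ± 0.09 (adjusted p = 0.0528), ATF4 itself at 0.13 ± 0.05 (adjusted p = 0.321) and DDIT3, which encodes CHOP, at 0.10 ± 0.12 (adjusted p = 0.777). The 96 h libraries exceeded the 72 h libraries in 35 of the 56 targets, against 9.26% of all tested genes. The 3 calls became 1 without 72 h replicate 1, 72 h replicate 2 or 96 h replicate 3, 7 without 72 h replicate 3 and 11 with the nuclear RNA covariate.

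**Figure D4:**
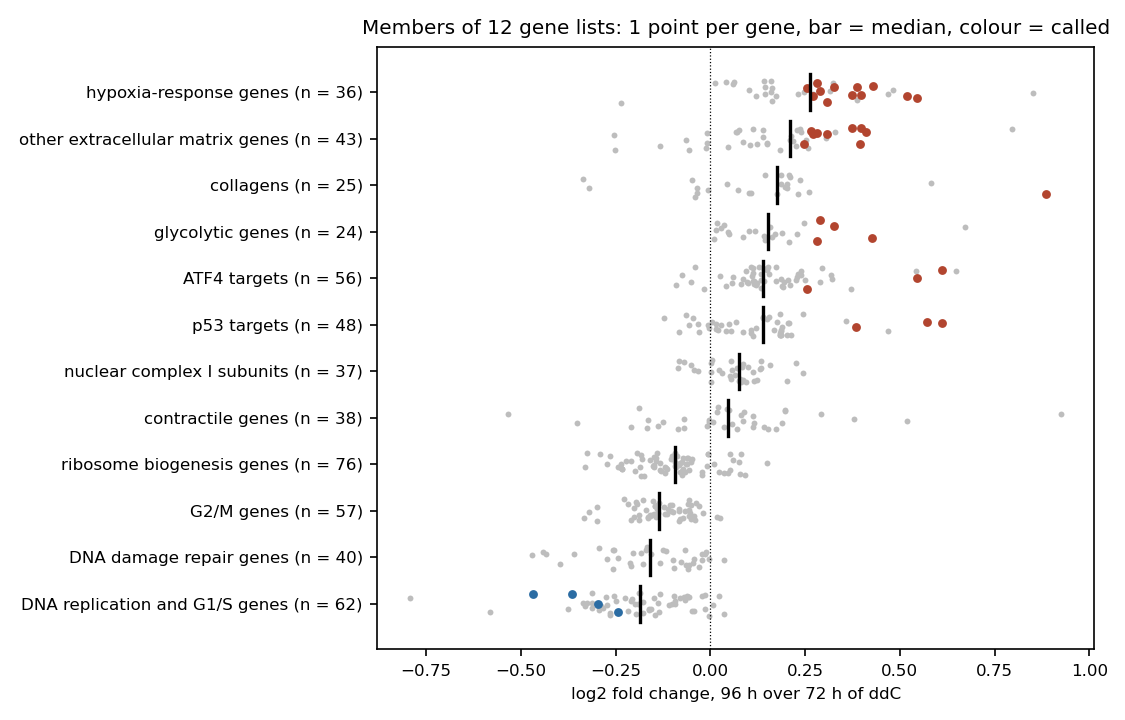
Fitted log2 fold change of 96 h over 72 h for each tested member (points) of 12 gene lists, with the list's median (bar) and called members in colour. Hypoxia-response, glycolytic, matrix, p53 and ATF4 genes lie mostly above 0, and genes of DNA replication, G2/M and DNA repair mostly below.

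Genes of DNA replication were the main group on the falling side. Of 62 tested genes of DNA replication and G1/S 4 fell and 0 rose, 3 lay above 0 and the median was -0.19. The 4 all act at replication origins: MCM4 and MCM7 are subunits of the replicative helicase, MCM10 helps to activate it and ORC1 is a subunit of the complex that marks origins. MCM7 stood at 217, 211 and 217 CPM at 72 h and at 169, 179 and 178 CPM at 96 h (-0.30 ± 0.05, adjusted p = 0.0126); AP4M1, which overlaps it on the opposite strand, had 10.4% as many counts. MCM4 went from 157, 153 and 153 CPM to 130.2, 130.3 and 131 CPM (-0.24 ± 0.05, adjusted p = 0.0298). ORC1 went from 22.2, 24.7 and 23.5 CPM to 17.2, 16.4 and 17.3 CPM (-0.47 ± 0.09, adjusted p = 0.0126). MCM10 fell by 0.36 ± 0.08 (adjusted p = 0.0396), a call that ended with limma-voom. In each of the 4, as in every called fall, all libraries at 96 h lay below all at 72 h. The other helicase subunits MCM2, MCM3, MCM5 and MCM6 did not pass, at values from -0.30 ± 0.07 for MCM3 (adjusted p = 0.0569) to -0.22 ± 0.07 for MCM2 (adjusted p = 0.235). The calls fell to 0 without 72 h replicate 1 or 2 or 96 h replicate 1 or 3 and to 1 without 96 h replicate 2; they were 8 without 72 h replicate 3 and 16 with the nuclear RNA covariate.

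FAM111B, a protease whose message varies with the cell cycle, had the largest fall among the called genes. It stood at 23.2, 25.4 and 21.7 CPM at 72 h and at 15.4, 15.2 and 17.0 CPM at 96 h (-0.56 ± 0.09, adjusted p = 0.00615). The groups did not overlap, as in every called gene. The call of FAM111B ended without 72 h replicate 1 or 2 or 96 h replicate 1 (adjusted p up to 0.0596). The S-phase transcription factors E2F1 (-0.34 ± 0.08, adjusted p = 0.0651) and E2F2 did not pass. E2F2 was at 4.53, 5.20 and 5.03 CPM and then at 2.59, 3.22 and 2.69 CPM (-0.79 ± 0.19, adjusted p = 0.0662). Genes of G2/M and of DNA repair lay mostly below 0, with 0 members called: 2 of 57 G2/M genes lay above 0 (median -0.14), as did 1 of 40 DNA repair genes (median -0.16). Examples are the mitotic transcription factor FOXM1 (-0.20 ± 0.05, adjusted p = 0.0756), the proliferation marker MKI67 (-0.32 ± 0.13, adjusted p = 0.389) and FANCE of the Fanconi anemia pathway (-0.43 ± 0.11, adjusted p = 0.0627). MKI67 also varied within 72 h, at 386, 384 and 280.0 CPM, with the low value in replicate 3, the 72 h library with the least nuclear RNA. Relative to the 72 h mean, the G2/M list stood at 0.009, 0.045 and -0.054 at 72 h and at -0.171, -0.068 and -0.145 at 96 h. The DNA repair list stood at 0.049, 0.059 and -0.107 and then at -0.175, -0.120 and -0.181. In both lists 72 h replicate 3 lay nearer to the 96 h libraries than 72 h replicates 1 and 2 did. Over the previous day the medians of these lists were -0.07 for DNA replication, 0.01 for G2/M and 0.03 for DNA repair.

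A loose form of the motif bound by E2F factors, TTTNNCGC read on both strands, was found in 10.8% of promoters of tested genes and in 30 of 50 promoters of the DNA replication list. Of the 6 called-lower genes with a promoter in the RefSeq table, MCM7 and HSPH1 held it. The called replication genes ORC1 and MCM10 did not. Both matches of MCM7 are given to show what the search found, on the minus strand at chr7:100101552-100101609 and chr7:100101398-100101431 (GRCh38.p14), with the motif or its reverse complement in capitals, beginning 187 and 9 bases before the start of the gene.
MCM7, distal: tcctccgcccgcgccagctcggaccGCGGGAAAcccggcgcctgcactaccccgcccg
MCM7, proximal: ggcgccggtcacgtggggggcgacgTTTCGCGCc

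**Figure D5:**
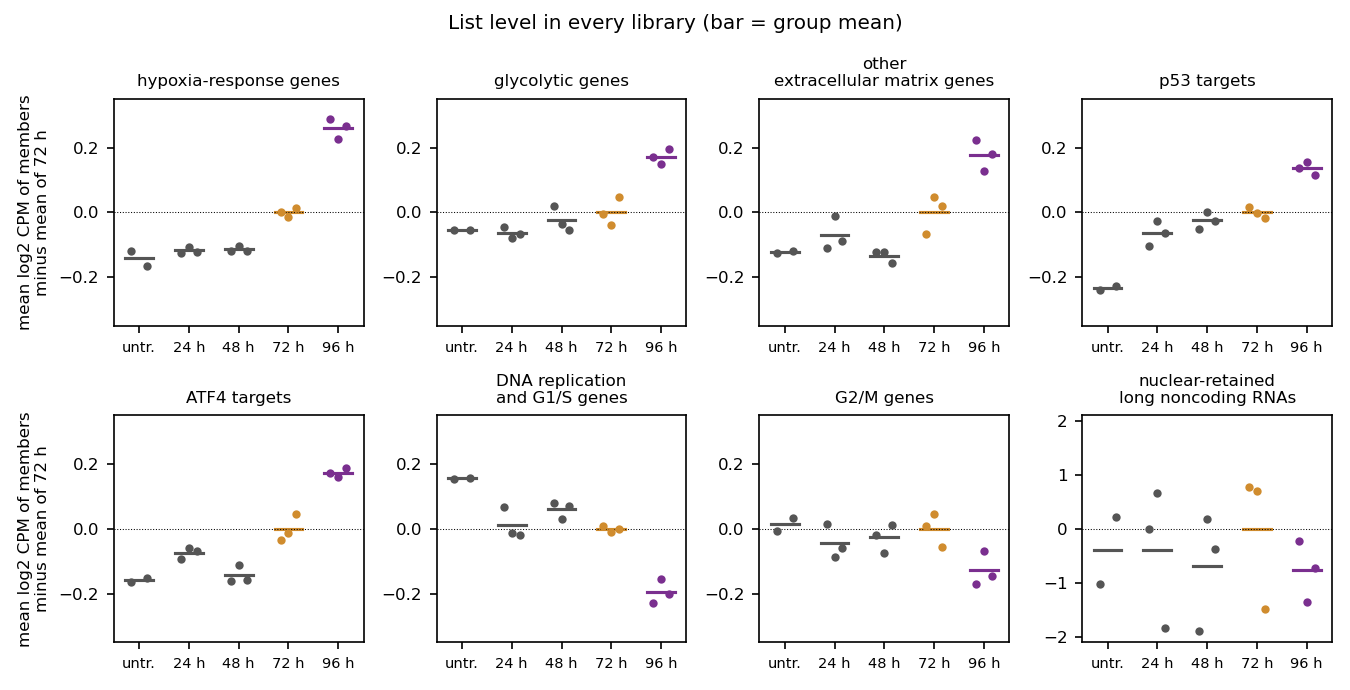
Mean log2 CPM of the members of 8 gene lists in each of the 14 libraries (points), minus the list's mean at 72 h, by time of ddC in hours. The 96 h libraries lie above 72 h for the hypoxia list and below it for DNA replication; the panel of nuclear long noncoding RNAs has a wider vertical axis, and replicate 3 at 72 h is its low point at that time.

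Many of the called genes belonged to no list, 34 of the 61 that rose and 4 of the 8 that fell. SERPING1 (NM_000062; hg19 chr11:57365027-57382326), the C1 inhibitor of the complement system, had the largest rise of these, from 13.9, 14.2 and 14.6 CPM to 23.3, 22.7 and 22.5 CPM (0.69 ± 0.11, adjusted p = 0.00601). SULF1, an enzyme that removes sulfate groups from heparan sulfate outside the cell, stood at 107, 106 and 110.2 CPM and then at 169, 149.9 and 148 CPM (0.53 ± 0.06, adjusted p = 5.68e-04). SERPING1 values were tight at both times, while the SD of SULF1 was 2.18 CPM at 72 h and 11.5 CPM at 96 h. In both genes the groups did not overlap, as in every called gene. The lineage transcription factor GATA6 rose by 0.62 ± 0.11 (adjusted p = 0.0126), the calcium-activated potassium channel KCNN2 by 0.57 ± 0.12 (adjusted p = 0.0383), FAXDC2 by 0.55 ± 0.11 (adjusted p = 0.0208) and TNFSF4, the OX40 ligand, by 0.54 ± 0.09 (adjusted p = 0.00617). Apart from SULF1, these calls ended without 72 h replicate 1 or 2 (adjusted p up to 0.2), and all but that of TNFSF4 also ended without 96 h replicate 1; FAXDC2 lost its call as well when the other groups were left out of the fit.

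Another 6 rises outside the lists are given as examples, picked with their values known. IGFBP4, which binds insulin-like growth factors, went from 1707, 1680.1 and 1984 CPM to 2299.8, 2292 and 2388 CPM (0.38 ± 0.06, adjusted p = 0.00644). IGF2 rose by 0.39 ± 0.08 (adjusted p = 0.0208); it shares its reads with the same-strand readthrough gene INS-IGF2, whose counts were 98.6% of those of IGF2, so the rises of these 2 genes are 1 measurement and its source is uncertain. ERRFI1, an inhibitor of the EGF receptor, went from 160.4, 151 and 172 CPM to 224, 207 and 205 CPM (0.39 ± 0.06, adjusted p = 0.00576). RDH10, a retinol dehydrogenase, rose by 0.48 ± 0.08 (adjusted p = 0.00601) and the ligand WNT5A by 0.24 ± 0.05 (adjusted p = 0.0211). KLF9, a hormone-responsive transcription factor, rose by 0.39 ± 0.08 (adjusted p = 0.0208). The 96 h libraries of each gene exceeded those at 72 h, as in every called rise. These calls ended without 72 h replicate 2 or 96 h replicate 1, and all but that of ERRFI1 without 72 h replicate 1, with adjusted p up to 0.175.

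Another 3 lists had a single called member each. ICAM1, a leukocyte adhesion molecule, was that of the NF-kB and inflammatory list (21.8, 21.5 and 23.0 CPM, then 33.4, 28.7 and 30.3 CPM; 0.48 ± 0.10, adjusted p = 0.0309). HMOX1, heme oxygenase, was that of the NRF2 targets (0.32 ± 0.06, adjusted p = 0.0223), a list whose median was -0.010. GABARAPL1, an autophagosome protein, was that of the lysosome and autophagy list (0.30 ± 0.07, adjusted p = 0.0372). Each of these calls ended without 72 h replicate 1 or 2 and without 96 h replicates 1 or 3 (adjusted p up to 0.231). Those of ICAM1 and GABARAPL1 also ended without 96 h replicate 2, and that of GABARAPL1 with limma-voom. Of the genes that fell outside the lists, besides FAM111B, the laminin receptor subunit ITGA6 went from 248, 266 and 247 CPM to 209, 217 and 206 CPM (-0.27 ± 0.06, adjusted p = 0.0339). The chaperone HSPH1 fell by 0.30 ± 0.06 (adjusted p = 0.0126) and GPATCH4 by 0.33 ± 0.07 (adjusted p = 0.034). These 3 falls lost their calls without any 1 of 5 of the libraries and kept them without 72 h replicate 3.

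Nuclear genes of the mitochondrion itself had medians near 0, and 0 members of these lists were called. The median was 0.08 for 37 nuclear complex I subunits, 31 of them above 0, and 0.05 for 43 subunits of complexes II to V, 34 of them above 0. Without 72 h replicate 3 these medians were 0.12 and 0.11, and with the nuclear RNA covariate 0.015 and 0.0049. In the mean level of the complex I list, 72 h replicate 3 lay within the range of the 96 h libraries. The median was -0.0016 for 79 mitochondrial ribosomal proteins and -0.03 for 36 genes of mitochondrial DNA replication, transcription and maintenance. TFAM, which packages mitochondrial DNA, stood at 45.2, 40.5 and 43.0 CPM and then at 39.1, 42.5 and 36.8 CPM (-0.12 ± 0.08, adjusted p = 0.574). POLG, the mitochondrial DNA polymerase, stood at 63.8, 66.4 and 51.1 CPM and then at 55.6, 47.3 and 57.0 CPM (-0.18 ± 0.12, adjusted p = 0.577). In both genes the groups overlapped. Ribosome biogenesis genes had a median of -0.09 with 12 of 76 above 0 and 0 called.

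Whether the fourth day differed from the third was asked by testing the step from 72 h to 96 h against the step from 48 h to 72 h. Of 13371 genes 0 (0%) passed in edgeR, with 700 at an unadjusted p under 0.05, and DESeq2 and limma-voom also called 0 (393 and 712 at an unadjusted p under 0.05). Both steps use the 72 h libraries and are not independent. The step from 48 h to 72 h by itself had 8 called genes (0.0598%), of which SULF1, ELN and ERRFI1 were also called from 72 h to 96 h. ACTA2, smooth muscle alpha-actin, was called in the earlier step (0.64 ± 0.07, adjusted p = 1.46e-04) and not in the later one. It stood at 787, 698 and 886 CPM at 72 h and at 1036, 906 and 960.2 CPM at 96 h, without overlap (0.29 ± 0.07, adjusted p = 0.0569), and the difference between its steps was -0.35 ± 0.12 (adjusted p = 0.848). The actin-binding TAGLN likewise had 0.35 ± 0.06 (adjusted p = 0.0274) and then 0.14 ± 0.06 (adjusted p = 0.392). The contractile list as a whole had a median of 0.13 over the third day and 0.05 over the fourth, with 0 of 38 members called over the fourth. For COL11A1 the steps were 0.36 ± 0.13 and 0.89 ± 0.12, for DDIT4 0.28 ± 0.07 and 0.55 ± 0.07, and for CDKN1A 0.07 ± 0.07 and 0.38 ± 0.07, and the difference between steps did not pass in any of these (adjusted p = 0.848 for each).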

How the data were processed

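Raw counts per gene were deposited for 14 libraries; per the submitters' processing notes, the authors aligned reads with STAR 2.5.3a to hg19 and quantified them with HOMER. Libraries were made with a stranded kit per the labels' protocols, and the strand setting of the counting is not given in the sources used here. Columns were matched to samples by title. Counts were analysed in edgeR 4.0.16 (R 4.3.3) with TMM factors, filterByExpr (minimum count 10, minimum total 15) and robust quasi-likelihood dispersions, fitted over the 14 libraries with 1 mean per group. Tests were two-sided, with Benjamini-Hochberg adjustment over 13371 genes. CPM is the count over the TMM-scaled total, times 1e+06, and the SE is the log2 change over the root of F. Y-linked and X-inactivation genes were left out of the genes reported and drawn, but not of the fit, the adjustment or the count of genes tested. Data were also simulated at these depths for 96 h against 72 h (13250 genes tested). The test called 52 of 65 genes given a 1.5-fold change, 56 of 64 given 2-fold and 68 of 69 given 4-fold. It called 5 of 13052 unchanged genes. Changes smaller than 1.5-fold were not simulated, whereas the rises called in the real data had a median of 1.31-fold. Detection at that size was therefore not measured.

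Members and gene lists were chosen with earlier results of these data known. Named genes are the 10 largest changes in each direction among called genes of mean log2 CPM of at least 1 and no overlap (8 falls qualified), the 2 smallest p of each list with a call, and 28 chosen genes, 5 of which were called; others named are list members or were picked after their values were seen. The 31 lists overlap in a few genes. Alternatives were median-ratio size factors, no filter, only the compared groups, DESeq2 1.42.0, limma-voom (limma 3.58.1), a nuclear RNA score as a covariate, a replicate block, leaving out each of the 6 libraries and, added after seeing the data, score and block together.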

Additional observations from a re-analysis of the deposited data

How the results depend on the processing

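All 69 called genes kept their direction in each of the 14 alternatives, and the difference between steps had 0 called genes in each. The calls were 117 (28 lower) with no filter on low counts, 83 with 20 lower with only the compared groups, and 125 (97 higher, 28 lower) with DESeq2. The nuclear RNA score as a covariate gave 252 (166 higher, 86 lower), and score and block together, chosen after seeing the data, gave 204 (134 higher, 70 lower). Median-ratio size factors gave 71 and limma-voom 66. Leaving out single libraries gave 5 to 243 calls, 5 to 156 higher and 0 to 87 lower, with most calls without 72 h replicate 3; the cause was not tested. Of the 69, 60 were called with only the compared groups, 61 with limma-voom and 56 with DESeq2, which gave no adjusted p for the other 13. The median of NRF2 targets, -0.010, turned to 0.023 without 72 h replicate 3 and to 0.013 without 96 h replicate 1, and ranged from -0.019 to 0.023 over single libraries left out. Medians of the hypoxia, matrix, ATF4 and DNA replication lists kept their sign in every alternative.

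The replicate number as a block gave 102 calls, 84 higher and 18 lower, all of the 69 among them. Same-numbered libraries deviated together weakly, with correlations of 0.209, -0.156 and 0.0436, and 72 h replicates 2 and 3 correlated best with another number at 96 h, so the numbers were not taken to pair the libraries. The block added calls and ended none. Low counts limit precision most in genes such as CA9 (SE 0.21) and E2F2 (SE 0.19).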
